A study of Mus musculus with 12 samples.

Results

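The genes described here were Igf1, its receptor Igf1r and the insulin-like growth factor binding proteins Igfbp2 to Igfbp7, chosen by gene symbol from the deposited expression table. All 8 symbols were found among 19439 gene entries, each once. Expression was measured by RNA sequencing in 3T3 mouse embryonic fibroblast lines, in a study that asked how p53, the transcription factor encoded by Trp53, bears on the response of cells to loss of glutamine. The 12 libraries form 4 groups of 3. WT complete is the line with wildtype p53 in DMEM with 2 mM L-glutamine, and WT glutamine-free is the same line in DMEM without L-glutamine. The p53-null complete and p53-null glutamine-free groups are the p53 -/- line in the same media. Each medium was given for 18 hours, and the lines had been grown in standard DMEM with 25 mM glucose and 2 mM L-glutamine. There was 1 line per genotype, so that a difference between genotypes is here a difference between lines, and p53 and other differences between the lines cannot be told apart. Whether the 3 libraries within a group are separate cultures is not stated in the labels, so the p-values measure only how far these libraries spread, and that spread may be technical.

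Insulin-like growth factors are secreted hormones that drive growth and survival through the IGF1 receptor, a membrane tyrosine kinase that signals through insulin receptor substrates, PI3 kinase and AKT. The binding proteins IGFBP2 to IGFBP6 are secreted, hold IGF1 and IGF2 with high affinity and decide how much of the ligand reaches the receptor, and proteases release the ligand by cutting them. IGFBP7 binds these ligands weakly and is better known as a matrix and cell adhesion protein. Fibroblasts are a known source of several of these proteins, and in other settings Igfbp3 is known as a target of p53.

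Values are RPKM, in which reads are divided by gene length and library depth, so that they can be compared between genes as levels. A depth of 37.8 to 47.0 M reads per library was estimated from the steps of low values, of which 69.6% to 73.3% lay within 0.1 of a whole read, so read numbers given below are approximate. Between 10306 and 10671 genes reached 1 RPKM in a library, and Pearson's r between same-group libraries, taken over genes as a description, was 0.9981 to 0.9989. Trp53 stood at 57.8 to 59.0 RPKM in WT complete, 109 to 114 in WT glutamine-free, 27.9 to 29.6 in p53-null complete and 33.9 to 35.2 in p53-null glutamine-free. The p53-null libraries were thus lower but not at 0, and a gene-level value does not tell which exons the reads fell in. Differences were tested with limma on log2(RPKM + 1), which understates the changes of low genes. Of the 8 genes 6 passed the filter of at least 1 RPKM in at least 3 libraries, and adjusted p-values are Benjamini-Hochberg values over all 11461 entries tested, with calls made at 0.05. Igf1 and Igfbp5 did not pass and are described without a test.

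Glutamine withdrawal lowered 5 of the 6 tested genes in the WT line, Igf1r, Igfbp2, Igfbp3, Igfbp6 and Igfbp7, and raised Igfbp4. Of these, Igfbp2 passed the filter only through WT complete, which tilts its change towards lower. In the p53-null line Igf1r rose, Igfbp2, Igfbp4, Igfbp6 and Igfbp7 fell, and Igfbp3 did not pass the test. Among all tested genes 46.0% were called higher and 44.0% lower in WT, and 50.0% higher and 32.0% lower in the p53-null line, so a call alone was common. The median log2 change of the 6 genes was -1.23 in WT, where the median of all tested genes was 0.01. It was -0.31 beside 0.08 in the p53-null line. The counts in the p53-null line depend on scaling for all genes: 61.0% of its calls were higher, against 47.6% after each library was centred on its median.

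**Figure D1:**
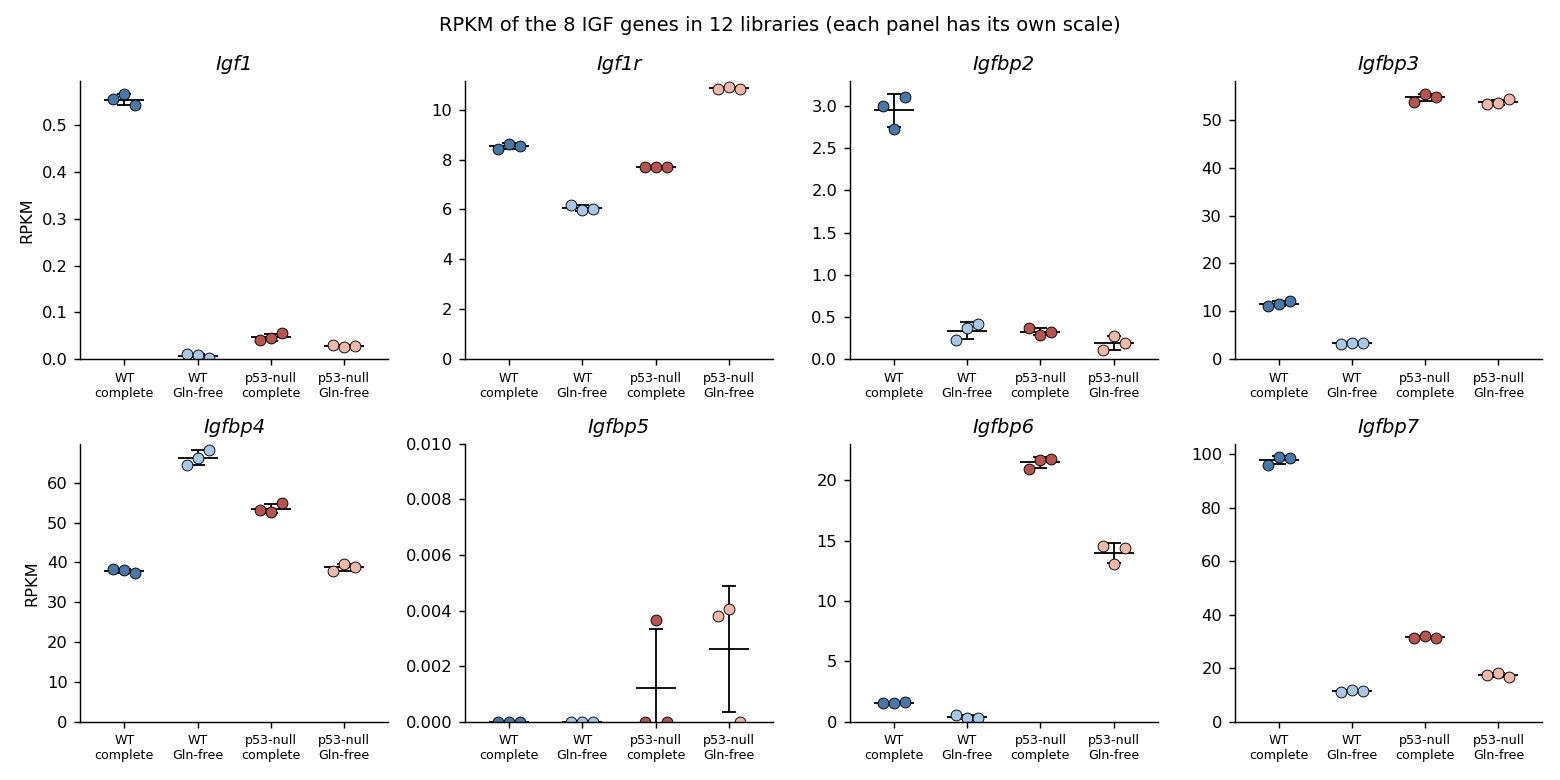
RPKM of each of the 8 genes in the 12 libraries, with 1 panel per gene and a scale of its own from 0 in each. Points are libraries, horizontal lines are group means and bars are the SD (n = 3). Igfbp3 and Igfbp6 are highest in the p53-null libraries, Igfbp7 in WT complete, and Igfbp4 in WT glutamine-free.

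Igf1, the secreted ligand (mm10 chr10:87858265-87937042, plus strand), was low everywhere. In the WT line it was read at 0.556, 0.566 and 0.543 RPKM in complete medium and at 0.00976, 0.00943 and 0.00280 without glutamine. The p53-null libraries gave 0.0408, 0.0445 and 0.0551 RPKM in complete medium and 0.0300, 0.0263 and 0.0271 without glutamine. Only WT complete held more than a trace, and the 4 groups did not overlap. These values correspond to about 215 to 230 reads per library in WT complete, 16.9 to 21.8 in p53-null complete, 10.9 to 13.3 in p53-null glutamine-free and 1.2 to 3.66 in WT glutamine-free. Because the last group rests on so few reads, no fold is given against it. The p53-null mean was 0.0468 ± 0.00739 RPKM (SD, n = 3) with glutamine and 0.0278 ± 0.00195 without, a ratio of 1.68.

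Igf1r, the receptor (chr7:67952827-68233668, plus strand), moved in opposite directions in the lines. WT libraries read 8.42, 8.64 and 8.56 RPKM in complete medium and 6.18, 5.97 and 6.01 without glutamine. The p53-null libraries read 7.72, 7.72 and 7.69 RPKM in complete medium and 10.8, 10.9 and 10.8 without glutamine. No groups overlapped, and the order from high to low was p53-null glutamine-free, WT complete, p53-null complete and WT glutamine-free. The log2 change was -0.44 ± 0.021 (SE) in WT, a 1.41-fold lower mean (limma, adjusted p = 2.07e-10), and 0.45 ± 0.021 in the p53-null line, a 1.41-fold higher mean (adjusted p = 4.39e-10). The difference between these responses was -0.88 ± 0.030 (limma interaction term, adjusted p = 1.33e-11). Between lines, p53-null minus WT, the log2 difference was -0.13 in complete medium and 0.75 without glutamine. The former was lost when libraries were rescaled to 1 sum of RPKM (-0.04, adjusted p = 0.132).

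The promoters of the 4 binding proteins with the highest levels are shown because these genes responded differently to the same medium. Each line holds the 250 bases before the transcription start of RefSeq on GRCm38.p6, 5′ to 3′ on the gene's strand, in the order chr11:7213924-7214173 (minus strand), chr11:99040994-99041243 (plus), chr15:102143936-102144185 (plus) and chr5:77408046-77408295 (minus). Capitals mark matches on either strand, none of which overlap, to the TATA box (TATAAA), the CCAAT box, the GC box (GGGCGG), the E-box (CACGTG), the ATF4 element (TGATGNAA), the forkhead element (TGTTTNC) or a p53 half-site.
Igfbp3: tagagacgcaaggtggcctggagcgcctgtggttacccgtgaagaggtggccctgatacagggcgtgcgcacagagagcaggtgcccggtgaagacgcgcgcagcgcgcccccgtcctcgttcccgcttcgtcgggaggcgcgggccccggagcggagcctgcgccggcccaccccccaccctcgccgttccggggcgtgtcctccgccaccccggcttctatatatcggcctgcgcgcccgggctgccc
Igfbp4: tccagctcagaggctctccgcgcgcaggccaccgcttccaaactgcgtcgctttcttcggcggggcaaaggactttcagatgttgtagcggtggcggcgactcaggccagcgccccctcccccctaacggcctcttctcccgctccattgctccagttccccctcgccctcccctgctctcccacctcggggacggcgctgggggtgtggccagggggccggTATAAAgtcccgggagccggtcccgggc
Igfbp6: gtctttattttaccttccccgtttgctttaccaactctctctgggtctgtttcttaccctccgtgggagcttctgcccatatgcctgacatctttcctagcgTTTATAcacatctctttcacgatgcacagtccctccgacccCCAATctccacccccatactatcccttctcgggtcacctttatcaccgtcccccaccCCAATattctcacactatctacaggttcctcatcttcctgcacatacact
Igfbp7: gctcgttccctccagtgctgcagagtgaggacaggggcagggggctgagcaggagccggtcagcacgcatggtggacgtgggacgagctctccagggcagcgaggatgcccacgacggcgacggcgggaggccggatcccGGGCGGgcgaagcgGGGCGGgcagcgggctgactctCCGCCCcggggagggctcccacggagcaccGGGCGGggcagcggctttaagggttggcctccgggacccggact
A TATA box match lay once in the Igfbp4 window and once, on the other strand (TTTATA), in the Igfbp6 window. Matches were counted at any place in a window, whatever their distance from the start. Igfbp6 also held 2 CCAAT box matches, and Igfbp7 held 4 GC box matches. The Igfbp3 window held none of the motifs, which says only that these letters are not in these 250 bases. Among 32851 promoter windows of this length, 12.4% held a TATA box match, 33.8% a CCAAT box, 32.7% a GC box, 6.02% an E-box, 3.45% an ATF4 element, 17.8% a forkhead element and 7.13% a p53 half-site. The GC content was 73.2% for Igfbp3, 69.2% for Igfbp4, 49.6% for Igfbp6 and 74% for Igfbp7, beside a median of 52.4% over all windows. The Igfbp3 window has 32 CpG, Igfbp4 22, Igfbp7 26 and Igfbp6 7, beside a median of 6. The Igfbp6 window ends at 102144185, while GENCODE starts the gene only at 102144362. Its contents therefore depend on which start is taken. Promoters of all 8 genes were found in the RefSeq table.

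Igfbp7 (chr5:77349240-77408041, minus strand) had the highest level of the 8 genes in WT complete medium and, among the 6 tested genes, the largest log2 change of (RPKM + 1). WT libraries read 96.1, 98.9 and 98.7 RPKM in complete medium and 11.2, 11.9 and 11.6 without glutamine. The p53-null libraries read 31.5, 32.1 and 31.4 RPKM in complete medium and 17.4, 18.4 and 16.6 without glutamine. All 4 groups were separate, with WT complete far above the others. The mean fell 8.46-fold in WT, with a log2 change of -2.98 ± 0.030 (limma, adjusted p = 5.03e-17). It fell 1.81-fold in the p53-null line, with a log2 change of -0.82 ± 0.030 (limma, adjusted p = 4.36e-11). The responses differed by -2.15 ± 0.043 (limma interaction term, adjusted p = 1.13e-13). The line order turned with the medium: the p53-null mean was 3.09-fold lower in complete medium (log2 -1.60) and 1.51-fold higher without glutamine (log2 0.55). Exons of Polr2b on the other strand lie under 7.03% of the exon length of Igfbp7, and reads were not assigned to strands by the kit.

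Igfbp4 (chr11:99041244-99054392, plus strand), a binding protein that holds IGF away from the receptor until proteolysis by PAPPA, was the 1 tested gene that rose in WT. Its WT values were 38.4, 38.0 and 37.3 RPKM in complete medium and 64.6, 66.2 and 68.3 without glutamine. The p53-null values were 53.1, 52.6 and 54.8 RPKM in complete medium and 37.8, 39.6 and 38.9 without glutamine. Withdrawal thus raised it in every WT library above the complete-medium range and lowered it in every p53-null library. The log2 change was 0.79 ± 0.024 in WT, 1.75-fold (limma, adjusted p = 1.43e-12). It was -0.46 ± 0.024 in the p53-null line, a 1.38-fold lower mean (limma, adjusted p = 1.16e-09), and the responses differed by 1.25 ± 0.034 (adjusted p = 1.65e-12). WT complete and p53-null glutamine-free overlapped, the 2 lowest groups. The p53-null mean was 1.41-fold higher in complete medium (log2 0.49) and 1.71-fold lower without glutamine (log2 -0.76).

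Igfbp3 (chr11:7206086-7213923, minus strand), the main carrier of IGF in blood, was much higher in the p53-null line. WT libraries read 11.2, 11.4 and 12.2 RPKM in complete medium and 3.13, 3.43 and 3.29 without glutamine. The p53-null libraries read 53.9, 55.5 and 54.9 RPKM in complete medium and 53.4, 53.5 and 54.4 without glutamine. The p53-null groups overlapped each other, and every p53-null library was above every WT library. In WT the mean fell 3.53-fold, with a log2 change of -1.56 ± 0.030 (limma, adjusted p = 1.98e-14). In the p53-null line the log2 change was -0.03 ± 0.030 (adjusted p = 0.446), and it was called at -0.13 after quantile normalization (adjusted p = 0.00142) and at -0.13 after median centring (adjusted p = 0.00178). The responses differed by -1.53 ± 0.043 (adjusted p = 2.47e-12). Between lines the p53-null mean was 4.72-fold higher in complete medium (log2 2.15) and 16.4-fold higher without glutamine (log2 3.68). Its neighbour Igfbp1, 3539 bases away, was not among the deposited gene entries.

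Igfbp6 (chr15:102144362-102149511, plus strand), which prefers IGF2 over IGF1, also stood higher in the p53-null line. WT libraries read 1.54, 1.53 and 1.61 RPKM in complete medium and 0.556, 0.278 and 0.301 without glutamine. The p53-null libraries read 20.9, 21.7 and 21.8 RPKM in complete medium and 14.5, 13.1 and 14.4 without glutamine. The 4 groups did not overlap. Withdrawal lowered the mean 4.12-fold in WT, with a log2 change of -0.90 ± 0.064 (limma, adjusted p = 1.44e-08), and 1.53-fold in the p53-null line, with -0.58 ± 0.064 (adjusted p = 1.99e-06). The difference of the responses, -0.32 ± 0.090 (limma, adjusted p = 0.00575), reversed to 0.07 after quantile normalization (adjusted p = 0.528) and was -1.23 with a pseudocount of 0.1. The cause of the reversal was not tested. The p53-null mean was 13.8-fold higher in complete medium (log2 3.13) and 37-fold higher without glutamine (log2 3.45).

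Igfbp2 (chr1:72824503-72852474, plus strand), a binding protein common in fetal tissue, was above 1 RPKM only in WT complete. It passed the filter only through those libraries. The filter thus tilted its WT response, its complete-medium line difference and the difference of its responses towards lower. Their p-values are not independent of the filter. The WT values were 3.00, 2.73 and 3.11 RPKM in complete medium and 0.225, 0.362 and 0.419 without glutamine. The p53-null values were 0.369, 0.286 and 0.317 RPKM in complete medium and 0.110, 0.269 and 0.187 without glutamine. WT glutamine-free overlapped both p53-null groups. In WT the mean fell 8.79-fold, with a log2 change of -1.57 ± 0.062 (limma, adjusted p = 2.85e-11). In the p53-null line the log2 change was -0.16 ± 0.062 (adjusted p = 0.0331), a call that was lost without a filter on low values (adjusted p = 0.0641), after quantile normalization (-0.07, adjusted p = 0.333) and when p53-null complete replicate 1 or 3 or p53-null glutamine-free replicate 1 or 3 was left out. The responses differed by -1.41 ± 0.088 (adjusted p = 6.49e-09). The line difference was -1.58 in complete medium and -0.17 without glutamine (adjusted p = 0.0222), and the latter was lost when libraries were rescaled (-0.14, adjusted p = 0.051) or without WT glutamine-free replicate 2 or 3 or p53-null glutamine-free replicate 1.

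Igfbp5 (chr1:72857932-72874884, minus strand) lies tail to tail with Igfbp2, 5457 bases away, and was close to undetected. It was listed at 0 in all 6 WT libraries. In the p53-null line 1 complete library read 0.00364 RPKM, and glutamine-free libraries read 0.00379, 0.00406 and 0. Each of the values above 0 corresponds to about 1 read (1.02 to 1.03). At this depth no difference between groups was detectable.

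**Figure D2:**
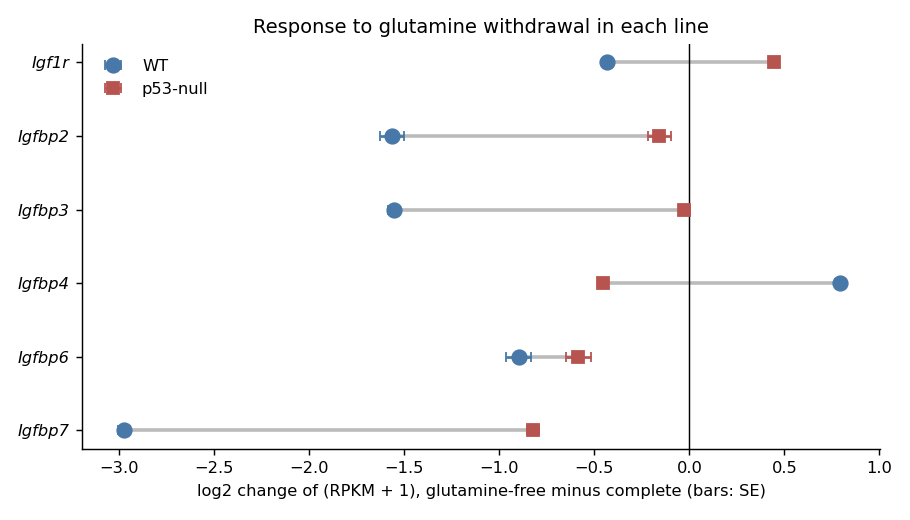
log2 change of (RPKM + 1) on glutamine withdrawal, glutamine-free minus complete, for the 6 tested genes on the vertical axis. Circles are the WT line and squares the p53-null line, and bars are the SE. Igf1r and Igfbp4 lie on opposite sides of 0 in the 2 lines, and the largest gap is that of Igfbp7.

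The interaction term passed for all 6 tested genes, 1 with the higher value in WT (Igfbp4) and 5 with the lower, while 84.9% of all tested genes passed it. Of the 11461 tested genes, 4404 had the higher value in WT and 5323 the lower. The higher ones were 45.3% of these calls, and 52.7% after quantile normalization. For Igfbp6 this depends on the scaling, as given above. Igfbp2 passed the filter only through WT complete, which tilts its interaction term and its complete-medium line difference towards lower. The median difference of the 6 was -1.14 beside -0.06 over all tested genes. In complete medium, 3 genes were higher in the p53-null line (Igfbp3, Igfbp4 and Igfbp6) and 3 lower (Igf1r, Igfbp2 and Igfbp7), where 48.4% of all tested genes were called higher and 42.5% lower. Without glutamine, 4 were higher (Igf1r, Igfbp3, Igfbp6 and Igfbp7) and 2 lower (Igfbp2 and Igfbp4), where 51.4% of all tested genes were called higher and 40.0% lower. The median line difference was 0.18 in complete medium and 0.65 without glutamine, beside 0.05 and 0.10 over all tested genes. These comparisons share groups, since each group enters a response and a line difference. Over libraries alone, groups of 3 that did not overlap gave p = 0.1 in an exact two-sided permutation test with 20 arrangements, the smallest p that design allows.

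Added up as levels, the 6 binding proteins gave 152 ± 1.49 RPKM (SD, n = 3) in WT complete and 81.9 ± 2.09 in WT glutamine-free. The sums were 162 ± 1.77 in p53-null complete and 124 ± 0.851 in p53-null glutamine-free. The sum was thus lower without glutamine in both lines. Its makeup differed between the groups. In WT complete Igfbp7 gave 64.4% ± 0.420 of the sum, Igfbp4 25.0% ± 0.573 and Igfbp3 7.63% ± 0.281. Without glutamine Igfbp4 took 81.0% ± 0.407, Igfbp7 14.1% ± 0.322 and Igfbp3 4.01% ± 0.147. The p53-null line had no such single leading gene. In its complete medium Igfbp3 gave 33.9% ± 0.312, Igfbp4 33.1% ± 0.590, Igfbp7 19.6% ± 0.308 and Igfbp6 13.3% ± 0.150. Without glutamine these shares were 43.3% ± 0.384, 31.2% ± 0.523, 14.1% ± 0.678 and 11.3% ± 0.718.

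**Figure D3:**
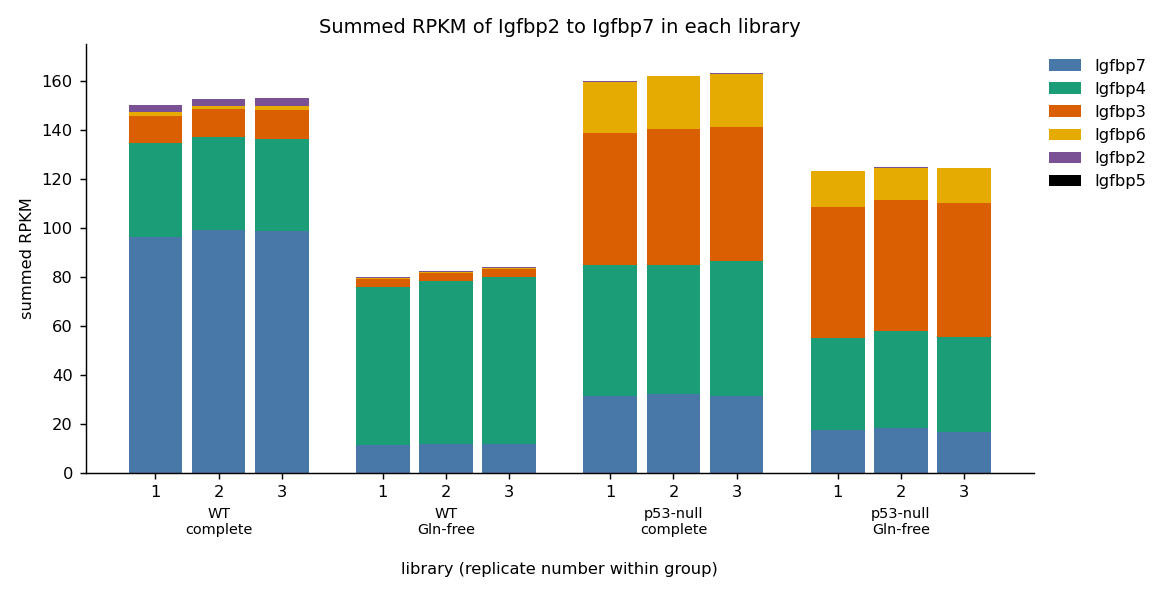
Summed RPKM of Igfbp2 to Igfbp7 in each library, stacked by gene, with libraries grouped by line and medium. WT complete libraries are mostly Igfbp7 and WT glutamine-free libraries mostly Igfbp4, while p53-null libraries hold 4 visible genes in both media.

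The other ligands and receptors were read from a list of 10 genes, of which 7 were in the table and 4 were tested. Igf2, the other IGF ligand, separated the lines most: it read 26.5, 27.0 and 26.9 RPKM in p53-null complete and 16.4, 15.2 and 14.8 in p53-null glutamine-free. WT libraries read 0.169, 0.161 and 0.135 RPKM with glutamine and 0.0469, 0.0283 and 0.0302 without. No library of one line came near the other. The line difference was 4.59 ± 0.035 in complete medium (limma, adjusted p = 4.22e-18), and Igf2 was called lower on withdrawal in both lines. Igf2 passed the filter only through the p53-null libraries, which tilts its line difference towards higher. Its mean fell 4.41-fold in WT and 1.73-fold in the p53-null line, while the log2 changes of (RPKM + 1) were -0.16 and -0.76, since the added 1 outweighs the WT levels. The difference of the responses, 0.60 with that pseudocount (limma, adjusted p = 1.21e-07), was -0.13 with a pseudocount of 0.1 (adjusted p = 0.249), so the order of the responses depends on the scale. As levels in RPKM, Igf2 stood above Igf1 in the p53-null libraries and Igf1 above Igf2 in WT complete. Exons of Igf2os on the other strand lie under 1.71% of the exon length of Igf2. Igf2r, the receptor that clears IGF2, and Insr, the insulin receptor, rose on withdrawal in both lines. The means of Igf2r were 22.6 ± 0.234 RPKM in WT complete and 26.4 ± 0.668 in WT glutamine-free, and 12.5 ± 0.0994 and 17.4 ± 0.200 in the p53-null groups. Those of Insr were 11.98 ± 0.270 and 14.2 ± 0.351 in WT, and 7.21 ± 0.211 and 12.6 ± 0.225 in the p53-null line. Lrp1, a large endocytic receptor that also binds IGFBP3, fell in both, from 55.1 ± 0.166 to 13.8 ± 0.210 RPKM in WT and from 69.9 ± 0.700 to 53.04 ± 0.405 in the p53-null line. Of the 4 tested genes 2 were called higher and 2 lower on withdrawal in each line, and likewise 2 and 2 between the lines in each medium. After rescaling to 1 sum of RPKM, Insr lost its lower call without glutamine (log2 -0.02, adjusted p = 0.474), which leaves 1 lower. Over all tested genes, 46.0% were called higher and 44.0% lower on withdrawal in WT, and 50.0% and 32.0% in the p53-null line. Between the lines, 48.4% were higher in p53-null and 42.5% lower in complete medium, and 51.4% and 40.0% without glutamine.

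Proteases that cut binding proteins, with their inhibitors, formed a list of 17 genes, 12 of them tested. On withdrawal 3 were higher, 8 lower and 1 not called in WT, with a median log2 change of -0.57. Of the same 12, 4 were higher, 7 lower and 1 not called in the p53-null line, with a median of -0.17. Over all tested genes the shares were 46.0% higher and 44.0% lower in WT, with a median of 0.01. They were 50.0% and 32.0% in the p53-null line, with a median of 0.08. Against WT, p53-null had 2 higher (1 with a filter of 5 RPKM) and 8 lower in complete medium and 6 and 6 without glutamine. The all-gene shares there were 48.4% higher and 42.5% lower in complete medium, and 51.4% and 40.0% without glutamine. Pappa, the metalloproteinase that cuts IGFBP4, read 1.02, 1.005 and 1.11 RPKM in WT complete and 1.05, 1.02 and 0.989 in WT glutamine-free (log2 change -0.02 ± 0.034, limma, adjusted p = 0.634). After quantile normalization that change was 0.25 (adjusted p = 1.24e-05). The p53-null libraries read 0.700, 0.727 and 0.655 RPKM with glutamine and 0.163, 0.125 and 0.152 without (log2 change -0.56 ± 0.034, adjusted p = 4.43e-09). Stc2, a secreted inhibitor of PAPPA, had its larger response in WT. It read 0.298, 0.407 and 0.314 RPKM in WT complete and 5.53, 5.30 and 5.69 in WT glutamine-free, and its mean was 0.0430 in p53-null complete and 0.122 in p53-null glutamine-free, groups that did not overlap. Its log2 change was 2.28 ± 0.038 in WT and 0.10 ± 0.038 in the p53-null line, and the responses differed by 2.18 ± 0.054 (limma, adjusted p = 8.48e-13). Stc2 passed the filter only through WT glutamine-free, which tilts its WT response and that difference towards higher. Its mean rose 16.2-fold in WT and 2.83-fold in the p53-null line, where the added 1 outweighs the levels. The p53-null call of Stc2 (adjusted p = 0.0233) was lost after median centring (adjusted p = 0.978) and without p53-null complete replicate 1, or p53-null glutamine-free replicate 1 or 3 (adjusted p = 0.0523 to 0.0682). Stc1, the related inhibitor, did not pass the filter, with means of 0.00667 to 0.0133 RPKM. Plau and Plat, which encode the plasminogen activators urokinase and tissue-type activator, fell in both lines. Plau went from 11.6 ± 0.304 to 1.35 ± 0.190 RPKM in WT and from 11.6 ± 0.529 to 8.34 ± 0.133 in the p53-null line. Plat went from 21.0 ± 0.224 to 3.41 ± 0.174 RPKM in WT and from 14.4 ± 0.0713 to 6.95 ± 0.175 in the p53-null line.

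Secreted proteins that carry an IGFBP domain in another context, among them the CCN family, formed a list of 13 genes with 8 tested. In WT 2 were higher and 6 lower on withdrawal, with a median log2 change of -0.92. Of these 8, 5 were higher and 3 lower in the p53-null line, with a median of 0.26. Over all tested genes the shares were 46.0% higher and 44.0% lower in WT, with a median of 0.01. They were 50.0% and 32.0% in the p53-null line, with a median of 0.08. Against WT, p53-null had 3 higher and 4 lower in complete medium and 3 and 5 without glutamine, where Wisp1 lost its lower call after rescaling (adjusted p = 0.601), which leaves 4. The all-gene shares there were 48.4% higher and 42.5% lower in complete medium, and 51.4% and 40.0% without glutamine. Cyr61, a matrix-bound CCN protein, read 118, 116 and 117 RPKM in WT complete and 22.7, 23.8 and 23.7 in WT glutamine-free. It went the other way in the p53-null line, from 40.0, 41.0 and 41.4 RPKM to 57.5, 61.5 and 60.1, and the responses differed by -2.81 ± 0.034 (limma, adjusted p = 2.16e-15). Nov fell in both lines, from 10.8 ± 0.147 to 1.72 ± 0.112 RPKM in WT and from 1.93 ± 0.298 to 0.404 ± 0.0563 in the p53-null line. Wisp1 rose in both, from 12.3 ± 0.217 to 47.2 ± 0.550 RPKM in WT and from 35.8 ± 0.234 to 42.3 ± 0.540 in the p53-null line.

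Signalling downstream of the receptor was read from 28 genes, 27 of them tested. In WT 9 were higher, 16 lower and 2 not called on withdrawal, with a median log2 change of -0.11. Of these 27, 15 were higher, 8 lower and 4 not called in the p53-null line, with a median of 0.09. Over all tested genes the shares were 46.0% higher and 44.0% lower in WT, with a median of 0.01. They were 50.0% and 32.0% in the p53-null line, with a median of 0.08, near that of the list. Against WT, p53-null had 12 higher and 14 lower in complete medium and 14 and 13 without glutamine, the last of which was 8 after rescaling. The all-gene shares there were 48.4% higher and 42.5% lower in complete medium, and 51.4% and 40.0% without glutamine. Grb14, an adaptor that inhibits the insulin receptor kinase, had the largest log2 change of the list: 21.6, 20.1 and 20.4 RPKM in WT complete against 0.716, 0.835 and 0.697 in WT glutamine-free. Its p53-null mean went from 10.6 ± 0.214 to 4.44 ± 0.168 RPKM. Its log2 change was -3.63 ± 0.038 in WT (limma, adjusted p = 5.67e-17) and -1.09 ± 0.038 in the p53-null line. Irs1, a docking protein for the receptor, fell in both lines, from 2.73 ± 0.0626 to 0.621 ± 0.0446 RPKM in WT and from 7.82 ± 0.0652 to 5.34 ± 0.227 in the p53-null line. Irs2, its relative, had means of 6.31 and 5.01 RPKM in WT and 7.75 and 8.34 in the p53-null line. It was called lower on withdrawal in WT, at a log2 change of -0.28 (limma, adjusted p = 3e-06). The small p53-null change of Irs2 was 0.09 (limma, adjusted p = 0.0199), and it was 0.00 after quantile normalization and -0.01 after median centring. That call was also lost without p53-null complete replicate 1 (adjusted p = 0.0557) or p53-null glutamine-free replicate 2 (0.0772). Gsk3b, a kinase that AKT inhibits, rose from 11.5 ± 0.214 to 31.5 ± 0.625 RPKM in WT and from 14.6 ± 0.193 to 20.1 ± 0.383 in the p53-null line. Grb10, an imprinted adaptor that restrains both receptors, differed mainly by line, at 24.4 to 28.3 RPKM over the p53-null libraries and 0.00993 to 0.0948 over the WT libraries. Its log2 line difference was 4.58 ± 0.026 in complete medium (limma, adjusted p = 3.92e-19). Grb10 passed the filter only through the p53-null libraries, which tilts that difference towards higher.

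The 3 IGF2 mRNA-binding proteins, which bind and stabilise IGF2 and other transcripts, were all tested. Igf2bp1 rose on withdrawal in both lines, from 6.04 ± 0.247 to 9.39 ± 0.131 RPKM in WT and from 10.3 ± 0.0520 to 15.4 ± 0.263 in the p53-null line. Igf2bp2 went from 23.6 ± 0.424 to 26.6 ± 0.257 RPKM in WT, a call lost after quantile normalization (log2 0.04, adjusted p = 0.0616), and from 24.7 ± 0.573 to 35.1 ± 0.347 in the p53-null line. Igf2bp3 was called lower in WT, at a log2 change of -0.10 (limma, adjusted p = 0.0049), and not called in the p53-null line, at -0.03 (adjusted p = 0.314), where it was called lower after quantile normalization (-0.19) and median centring (-0.14). All 3 were called higher in the p53-null line than in WT in both media, although that of Igf2bp2 in complete medium, at 0.06, was lost after median centring (0.02, adjusted p = 0.251), without WT complete replicate 3 (adjusted p = 0.0598) and without p53-null complete replicate 1 (0.0524). Over all tested genes 48.4% were called higher in the p53-null line in complete medium and 51.4% without glutamine.

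**Figure D4:**
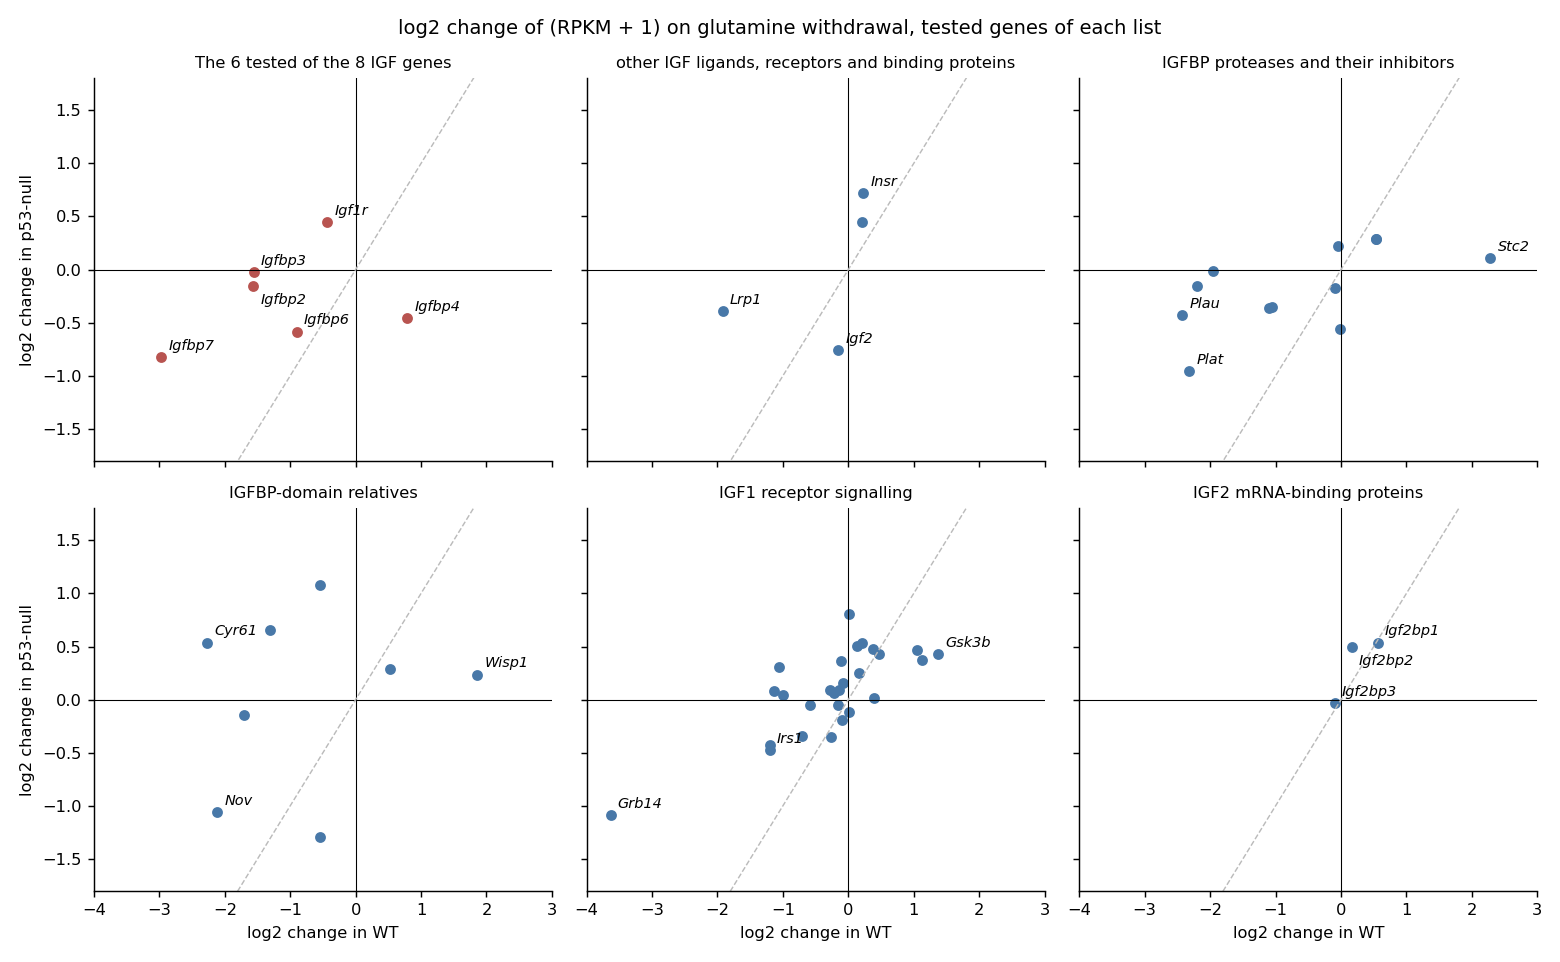
log2 change of (RPKM + 1) on glutamine withdrawal in WT (horizontal) against p53-null (vertical), 1 point per tested gene and 1 panel per gene list. The dashed line marks equal changes, the axes have different ranges, and the members named in the text by rule are labelled. Points lie on both sides of 0 in each line, and Grb14, Igfbp7 and Plau are among the lowest in WT.

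Genes with the most similar pattern over the 12 libraries were ranked by the root mean square difference of centred log2(RPKM + 1) among 10230 genes, with Pearson's r as a description; all points share the same libraries. For Igf1r these were Kif3c (0.0512, r = 0.990), Ptcd1 (0.0528, r = 0.983) and Ripk1 (0.0553, r = 0.997). Igfbp2 was closest to Stk38l (0.0894), Sema3f (0.0912) and Apol6 (0.0942). Igfbp3 was closest to Fbln2, a matrix protein gene (0.187), Itga3 (0.212) and Etv4 (0.278). Fbln2 had mean levels of 67.4 and 17.0 RPKM in the WT groups and 324 and 304 in the p53-null groups. The nearest to Igfbp4 was N6amt1 (0.0422), then Apba3 (0.0817) and Mlst8 (0.0831), a subunit of the mTOR complexes. Igfbp6 had Aim1 (0.198), Arhgdib (0.212) and Serpinb9 (0.222). Igfbp7 had Cd109 (0.153), Acat2 (0.154) and Ccnb2 (0.161), a cyclin gene of mitosis. No gene was named for more than 1 member. The names depend on the measure: of the 3 genes ranked first by r, 2 were the same for Igf1r, 1 each for Igfbp3, Igfbp4 and Igfbp6, and 0 for Igfbp2 and Igfbp7.

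Markers of fibroblasts and of other cell types were read in the same libraries. Of 12 fibroblast markers, 10 were tested, and on withdrawal 10 were lower in WT, and 8 lower, 1 higher and 1 not called in the p53-null line. Over all tested genes 44.0% were called lower in WT and 32.0% in the p53-null line. Against WT, p53-null had 9 lower and 1 higher (Vim) in complete medium, and 5 and 5 without glutamine. The all-gene shares there were 42.5% lower and 48.4% higher in complete medium, and 40.0% and 51.4% without glutamine. The fibroblast markers summed to 4206 to 4225 RPKM in WT complete, 1048 to 1056 in WT glutamine-free, 2558 to 2597 in p53-null complete and 1487 to 1513 in p53-null glutamine-free. Vim alone had means of 760, 72.3, 1730 and 770 RPKM in the same order. Of the defining markers, Thy1 was at 0 to 0.0282 RPKM in the WT libraries and at most 0.345 in the p53-null libraries, and Lum was at 0 in the p53-null libraries and at most 0.0351 in WT. Muscle and smooth muscle markers, 7 of 9 in the table, summed to 46.6 to 47.6 RPKM in WT complete, 4.90 to 5.19 in WT glutamine-free, 119 to 120 in p53-null complete and 15.7 to 16.7 in p53-null glutamine-free. Most of this was Acta2, with means of 43.8, 3.71, 106 and 11.7 RPKM in the same order. Of these 7 markers, 3 reached 1 RPKM in a group mean. Adipocyte markers summed to 24.7 to 26.8, 3.64 to 4.22, 21.96 to 22.7 and 23.2 to 24.2 RPKM in the same order. Different genes carried these sums: Fabp4 had a mean of 22.7 RPKM in WT complete and 0.0969 in p53-null complete, and Lpl had 0.0140 and 18.5. Epithelial markers, 7 of 8 in the table, summed to at most 0.167 RPKM in WT libraries and to 60.1 to 77.1 in p53-null libraries, with Krt18 alone at 59.1 to 76.6, and Krt18 was not called on withdrawal in WT (limma, adjusted p = 0.489). In the p53-null line Krt18 was called higher on withdrawal (log2 0.34, limma, adjusted p = 1.23e-08). Endothelial, blood cell and liver cell markers summed to at most 1.67, 7.68 and 0.544 RPKM in any library. The 1 tested endothelial marker, Kdr, was not called on withdrawal in WT or in the p53-null line (limma, adjusted p = 0.889 and 0.898), and no liver cell marker was tested. The 1 tested blood cell marker, Cd68, was called lower on withdrawal in both lines. Its log2 change was -0.28 in WT and -1.35 in the p53-null line (limma, adjusted p = 0.0082 and 1.01e-08). Krt18, Kdr and Cd68 were each called higher in the p53-null line than in WT in both media. Krt18, the 1 tested epithelial marker, and Kdr passed the filter only through the p53-null libraries. The filter thus tilted their line differences towards higher. The part of these markers in the results was not tested, and in bulk RNA fewer cells of a type and less RNA per cell cannot be told apart.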

How the data were processed

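Deposited values were RPKM per gene in 12 libraries, made by the authors from TruSeq RNA V2 libraries of 0.5 ug total RNA. Per the submitters' processing notes, CASAVA 1.8, HISAT2 2.0.4, Partek and mm10 were used; the sources used here give no annotation. No count model was fitted, since the values are not counts. Groups were taken from sample titles. Differences were fitted with limma 3.58.1 in R 4.3.3 on log2(RPKM + 1), with a mean-variance trend, 1 coefficient per group and 5 contrasts over all 12 libraries. Genes had to reach 1 RPKM in at least 3 libraries. The script was tested on simulated data. Alternatives were a pseudocount of 0.1, no filter, a filter of 5 RPKM, rescaling, quantile normalization, median centring, no trend, only the groups compared, a replicate block and leaving out each library. Named were the 8 genes, Trp53, in each pathway list the 3 tested genes with the largest response and a few genes set by role, and the 3 genes most like each tested member. The members and lists were chosen with earlier results of these data known. Gene positions are from GENCODE M21.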

Additional observations from a re-analysis of the deposited data

Results flagged for a closer look

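The glutamine response differed between the lines, by limma's interaction term, for all 6 tested genes. The log2 response in WT minus that in the p53-null line was -0.88 for Igf1r, -1.41 for Igfbp2, -1.53 for Igfbp3, 1.25 for Igfbp4, -0.32 for Igfbp6 and -2.15 for Igfbp7. After quantile normalization the Igfbp6 difference was 0.072 (adjusted p = 0.528). Igfbp2 passed the filter only through WT complete, which tilts its difference towards lower. Igf1r and Igfbp4 changed in opposite directions, and every glutamine-free library of one line was above its complete-medium libraries while every one of the other line was below. The same held for Cyr61, with a difference of -2.81, for Irs2, with -0.38, and for Grb10, with -0.23. For Irs2 and Grb10 the p53-null response lost its call under median centring and under quantile normalization, that of Grb10 also with a pseudocount of 0.1, and Grb10 is near 0 in the WT libraries. The difference itself was lost for Grb10 after quantile normalization (-0.04, adjusted p = 0.296). Its WT response was lost there too (adjusted p = 0.0758) and without WT complete replicate 3 (adjusted p = 0.0623). Of all tested genes 84.9% passed the same term, and 45.3% of those calls had the higher value in WT.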

How the results depend on the processing

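Of 475 log2 changes of the tested genes under 21 alternatives, 461 kept their direction and their side of the threshold. The 1 reversal was the difference of responses for Igfbp6, 0.072 after quantile normalization; the cause was not tested. The number of tested members lower in the p53-null line without glutamine was 2 and became 1 with a filter of 5 RPKM, which leaves Igfbp2 untested, and 1 after rescaling to one sum of RPKM. Leaving out 1 library gave 1 to 2, with 1 without WT glutamine-free replicate 2 or 3 or p53-null glutamine-free replicate 1. Among 1595 log2 changes of the other named genes, 1566 kept direction and side, and 6 reversed. These were Igf2 in the difference of responses (-0.13, pseudocount of 0.1), Pappa in WT (0.25), Irs2 (-0.00051) and Grb10 (-0.0089) in the p53-null line after quantile normalization, and Stc2 (-0.0011) and Irs2 (-0.011) in the p53-null line after median centring. Over all tested genes, the median log2 line difference without glutamine was 0.10, and 0.23 after rescaling and -0.03 after median centring. With a replicate block, 5277 genes were called higher in WT on withdrawal, against 5276 without, and no call of the 6 tested genes changed. Deviations from the group means gave r from -0.106 to 0.056 between same-numbered libraries. Between libraries of different number r was -0.112 to 0.111. With 3 libraries per group these values cannot tell whether the numbers pair cultures. Depth limits Igf1 in WT glutamine-free and Igfbp5 in every group, which rest on a few reads or none, and RPKM carry no counts from which their error could be taken.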
